A study of Caenorhabditis elegans with 2 samples.

Results

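The basic helix-loop-helix (bHLH) genes named hlh and the homeobox genes named ceh were examined for SNAI-1 ChIP-seq regions in Caenorhabditis elegans embryos of a late stage. All protein-coding genes of the 6 nuclear chromosomes whose symbol in the Ensembl annotation of WBcel235 starts with hlh- or ceh- were taken, which gave 25 hlh genes and 63 ceh genes, 88 of 19973 in all. The choice used no measured value. The samples are 2 biological replicates of a single group, per the labels, with no other condition. Whole mixed-sex embryos of strain OP698 (unc-119(tm4063) III; wgIs698) were collected 5 hours after egg bleaching, at the stage that the labels call late embryonic. The strain carries an integrated transgene for SNAI-1 (K02D7.2), a zinc-finger protein of the Snail family, with a C-terminal tag that the labels give as eGFP in one field and GFP-FLAG in another. Sonicated chromatin was recovered with an antibody against GFP, although the antibody field of the labels names K02D7.2. The promoter that drives the transgene is not given in the sources used here, nor are the cells that make the fusion protein, and no cell type could be checked, since regions and not transcripts were measured.

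bHLH proteins bind DNA as dimers at E-boxes, hexamers of the form CANNTG, and direct muscle and neuron formation in many animals. Homeodomain proteins usually bind short AT-rich sites that contain TAAT and set regional and neuronal identities in the worm. Snail-family zinc-finger proteins bind a subset of the E-boxes, CAGGTG among them, and are known as repressors in other animals. In C. elegans the Snail-family protein CES-1 has been placed at sites that the bHLH dimer HLH-2/HLH-3 also uses, in the control of a cell death gene in a neuron lineage.

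Each gene was given its strongest candidate region, by the caller's signal in the authors' pooled list of 30000 regions, whose summit lay between 2000 bp upstream of a transcript start and the end of the gene. The signal has no stated scale and is comparable within 1 list only, so replicates are compared by rank, where rank 1 is the strongest of 30000. The 495 regions that passed the authors' reproducibility filter (irreproducible discovery rate, IDR) were the strongest 495 of the pooled list and reached down to a signal of 114.7. The pooled list, which by its title holds peaks and background, ran from 32.9 to 866.2 with a median of 45.0. Its weakest region had a −log10 q-value of 0.0372, and only 2.65% of its regions reached 1.3, so most of its entries are weak candidates. Among the scored regions of the hlh and ceh genes, that of ceh-8 alone reached 1.3, at 1.47, and ceh-22 followed with 1.2. Read counts are not in these lists, the depth of the libraries is unknown, and no interval can be given on a signal.

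The summit base and 50 bp to each side of it are shown for 9 scored regions, 5′ to 3′ on the strand of the gene, from the RefSeq sequence of WBcel235 (ce11). They are the regions of the 4 hlh genes with the highest signal, the strongest of the NK-2 homeobox genes and of a homeobox gene cluster on X, with 1 region that shares a repeated motif. Capitals mark 3 patterns on either strand, which are the E-box CANNTG, the hexamer TTAGGC, which is the unit of the worm's telomere repeat, and the hexamer TTGCCG. The hexamers were chosen after the sequences had been read.
hlh-30 (chrIV:4015214-4015314, minus strand): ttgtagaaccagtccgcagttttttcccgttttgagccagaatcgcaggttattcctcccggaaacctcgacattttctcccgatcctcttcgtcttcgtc
hlh-1 (chrII:4520820-4520920, plus strand): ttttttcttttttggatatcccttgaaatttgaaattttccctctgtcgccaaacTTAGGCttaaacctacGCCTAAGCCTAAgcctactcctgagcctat
hlh-33 (chrIII:1854004-1854104, plus strand): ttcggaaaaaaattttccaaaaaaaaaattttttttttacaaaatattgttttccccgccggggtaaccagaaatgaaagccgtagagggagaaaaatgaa
hlh-13 (chrX:4249345-4249445, plus strand): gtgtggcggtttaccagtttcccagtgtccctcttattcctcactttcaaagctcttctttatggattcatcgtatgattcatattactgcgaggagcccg
ceh-22 (chrV:10672654-10672754, plus strand): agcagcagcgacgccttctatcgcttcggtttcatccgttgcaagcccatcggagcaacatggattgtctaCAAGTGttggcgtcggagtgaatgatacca
ceh-51 (chrV:18873470-18873570, plus strand): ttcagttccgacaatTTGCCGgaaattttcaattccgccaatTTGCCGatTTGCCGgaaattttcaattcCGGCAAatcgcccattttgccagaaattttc
ceh-86 (chrII:2428560-2428660, minus strand): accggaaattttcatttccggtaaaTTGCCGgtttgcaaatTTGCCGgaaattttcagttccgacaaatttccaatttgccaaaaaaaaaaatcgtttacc
ceh-21 and ceh-41 (chrX:1850593-1850693, minus strand): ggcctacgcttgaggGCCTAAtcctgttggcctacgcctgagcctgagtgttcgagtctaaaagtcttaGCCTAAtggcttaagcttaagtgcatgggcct
ceh-39 (chrX:1856218-1856318, minus strand): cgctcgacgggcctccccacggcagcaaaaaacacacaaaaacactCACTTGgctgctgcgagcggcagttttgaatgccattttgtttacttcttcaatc

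No hlh gene and no ceh gene had an IDR peak in its window, of 25 and of 63, against 2.78% of the 19885 other genes. Over all genes tested the share was 2.77%. With the share of other genes taken in each of 6 length classes and weighted by the members in that class, 0.595 hlh genes and 1.85 ceh genes would be reached, so that a count of 0 in families of this size lies less than 2 genes below the length-adjusted background. The member nearest to the IDR list was ceh-8 with a signal of 105.0, against 114.7 for the weakest IDR peak. Among the 990 strongest pooled regions, a list 2 times the length of the IDR list, 0 hlh genes and 2 ceh genes (ceh-8 and ceh-22) had a summit in the window, against 5.10% of other genes. The share over all genes tested was 5.09%, and the length-adjusted numbers were 1.1 hlh genes and 3.42 ceh genes. Neither family therefore held more of the strongest regions than its gene lengths gave in the rest of the genome.

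**Figure D1:**
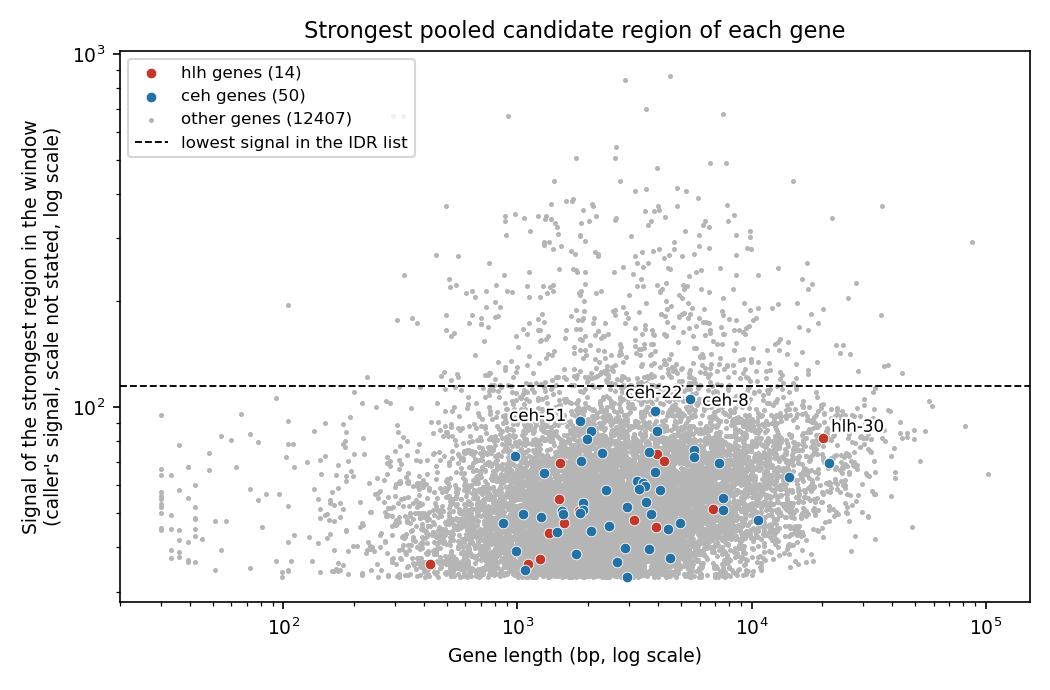
Signal of the strongest pooled region of each gene (vertical axis, log scale, scale not stated) against gene length in bp (log scale), for 14 hlh genes, 50 ceh genes and 12407 other genes; the dashed line is the weakest IDR peak. All members lie below the line, with ceh-8 nearest to it at 105.0 and hlh-30 highest among hlh genes at 81.7.

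The families differed in how many members held any candidate region. A pooled candidate summit lay in the window of 14 of 25 hlh genes (56.0%) and of 50 of 63 ceh genes (79.4%), against 62.4% of other genes; the share over all genes tested was 62.4%. The difference of hlh minus ceh was -23.4 percentage points. The ceh genes are longer, with a median of 2652 bp, against 1504 bp for hlh genes and 2027 bp for other genes. Weighted to the lengths of each family, other genes gave 58.0% for hlh and 65.1% for ceh. The hlh count was thus within 1 gene of the 14.5 that their lengths gave, while the 50 ceh genes stood beside 41. Each replicate alone gave the same order. In replicate 1, 13 hlh genes (52.0%) and 47 ceh genes (74.6%) held a candidate, with 64.5% over all genes tested, and in replicate 2, 15 hlh genes and 50 ceh genes (79.4%), with 65.6% over all genes. No test was made of these shares, since genes are not replicates of a condition.

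Within the length classes the gap lay mostly among genes of at least 1000 and under 2000 bp. There 7 of 16 hlh genes (43.8%) and 14 of 18 ceh genes (77.8%) had a candidate, against 51.9% of 6171 other genes. Among genes of at least 3000 and under 5000 bp, 4 of 4 hlh genes and 15 of 18 ceh genes (83.3%) did, against 74.6% of other genes. No hlh gene was between 2000 and 3000 bp long, a class in which 9 of 12 ceh genes (75.0%) and 61.9% of other genes had a candidate. Both hlh genes and all 9 ceh genes of 5000 bp or more held one. Most other genes of these lengths did too. They were 1915 of 2228 other genes of at least 5000 and under 10000 bp, and 941 of 994 of 10000 bp or more. Below 1000 bp, 1 of 3 hlh genes and 3 of 6 ceh genes did, against 46.8% of other genes.

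**Figure D2:**
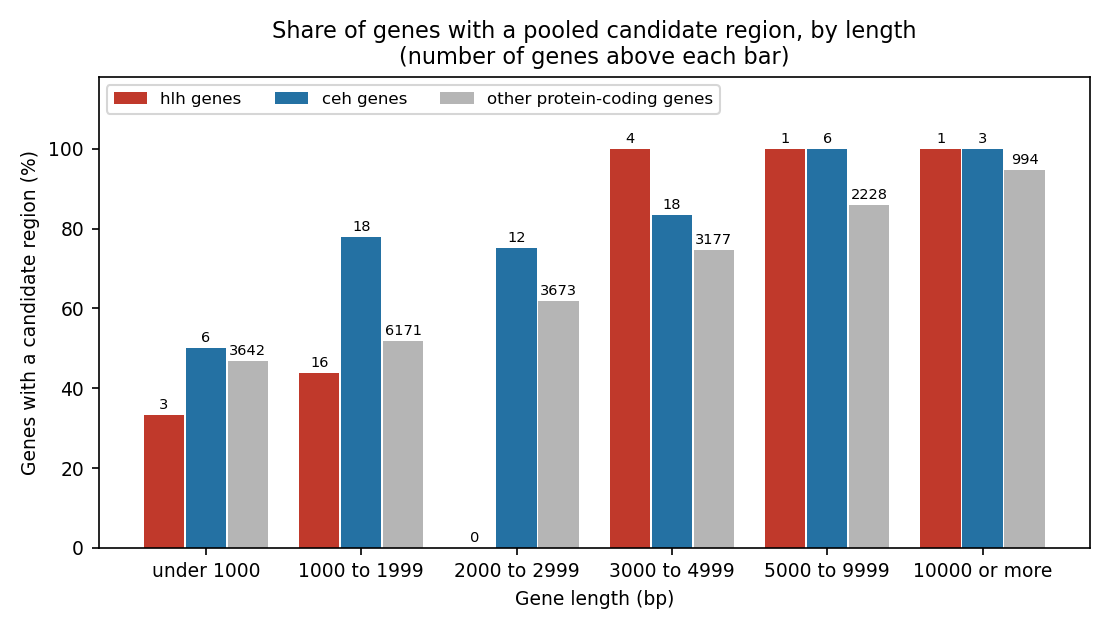
Percent of genes with a pooled candidate summit in the window (vertical axis) by gene length in bp, for hlh genes, ceh genes and other protein-coding genes, with the number of genes above each bar. The hlh and ceh bars stand furthest apart at 1000 bp or more and under 2000 bp, at 43.8% and 77.8%, with other genes at 51.9%; no hlh gene is in the next class.

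Counted per kb of window, the order of the families turned round. Summed over genes, the hlh windows held 51 candidate regions (0.436 per kb) and the ceh windows 102 (0.295 per kb), against 0.302 per kb for other genes. A region in the windows of several members was counted for each, as at ceh-21 and ceh-41 and at ceh-81 and ceh-82. Of the 51, 20 belonged to hlh-30 alone, and without it the hlh genes had 0.327 per kb. Some candidates overlap each other, and after overlapping ones were joined within each gene 44 remained in hlh windows and 94 in ceh windows. The median signal of the strongest region was 49.3 over the 14 hlh genes and 53.6 over the 50 ceh genes that had one, against 52.4 over other genes that had one. These medians cover only genes with a candidate, and their median ranks were 11602 for hlh, 8766.5 for ceh and 9469 for other genes.

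Among the bHLH genes the strongest region belonged to hlh-30 (WBGene00020930, chrIV:4014793-4034951), the worm's TFEB homolog, which controls autophagy and lysosome genes. Its scored region (chrIV:4015036-4015491) lay in an exon near the end of the gene and had a pooled signal of 81.7 at rank 1707. In replicate 1 the overlapping region had a signal of 54.1 at rank 1038, and in replicate 2 a signal of 26.2 at rank 11802. The region was therefore among the stronger candidates of 1 replicate only. A second region in an intron was more even, with a pooled signal of 80.1 at rank 1844 and ranks of 3371 and 2931 in replicates 1 and 2. The gene is 20159 bp long, and 24.1% of the 994 other genes of 10000 bp or more had a stronger region than it did. Its 20 candidates comprised 2 upstream, 3 in exons and 15 in introns, with signals from 33.4 to 81.7 and a median of 49, and 16 remained after overlapping ones were joined. Of those long genes, 97.0% had fewer candidates than hlh-30. In both replicates 15 of the 20 were overlapped by a candidate, against 52.1% of all pooled regions. Some neighbouring candidates among the 15 were overlapped by the same replicate regions, so they are not separate matches.

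The next was hlh-1 (WBGene00001948, chrII:4518574-4522528), the MyoD homolog of body-wall muscle. Its strongest region (chrII:4520642-4521097) lay in an intron, 1803 bp downstream of the nearest start, with a signal of 73.4 at rank 2647. It ranked 9568 in replicate 1 and 4805 in replicate 2, so neither replicate alone placed it near the top. The sequence above shows it to hold 3 copies of TTAGGC and no E-box. Of 5 candidates at hlh-1, 3 lay upstream, at positions -245, -992 and -1850 bp from the first start, and the one at -245 ranked 1510 in replicate 2 with no overlapping region in replicate 1. The one at -992 ranked 1643 in replicate 1 with none in replicate 2. The upstream candidate at -1850 was weaker in the pooled list, at 46.1, yet ranked 3576 and 4111 in replicates 1 and 2. Of the 3177 other genes of at least 3000 and under 5000 bp, 94.1% had fewer candidates than hlh-1 and 14.3% had a stronger one.

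**Figure D3:**
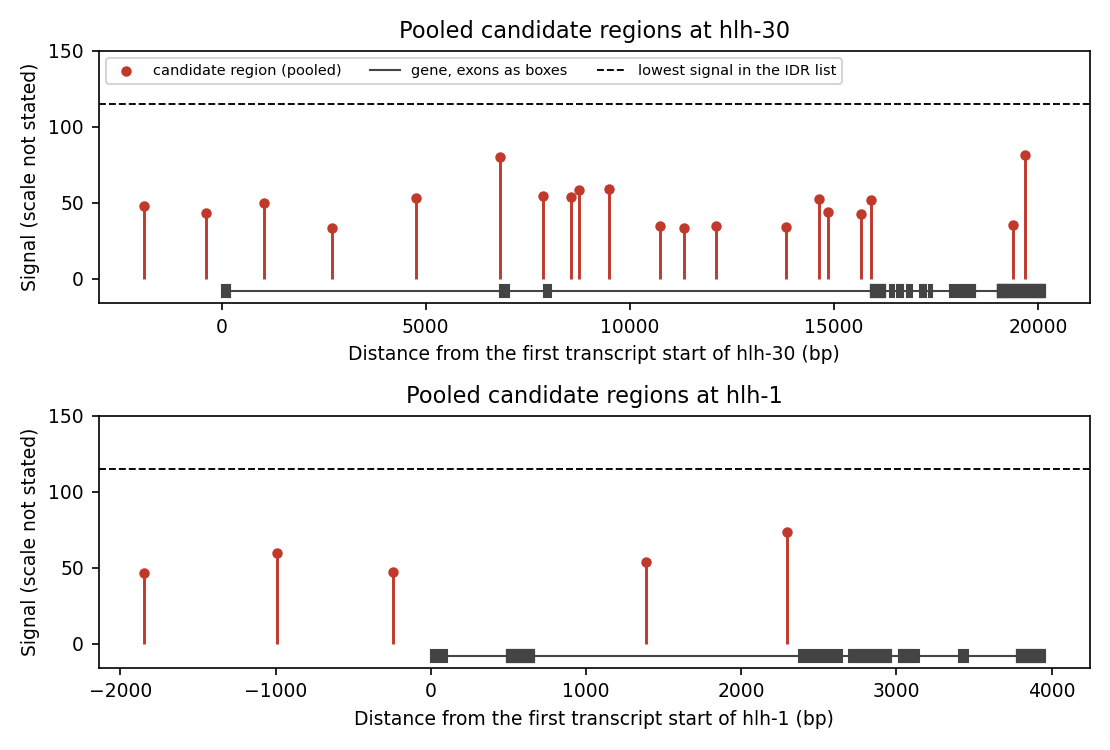
Pooled candidate regions at hlh-30 (top) and hlh-1 (bottom), by distance in bp from the first transcript start (horizontal axis) and signal (vertical axis, scale not stated), with exons as boxes and the weakest IDR peak as a dashed line. The 20 regions of hlh-30 lie along the whole gene with 81.7 as the highest, and the 5 of hlh-1 lie upstream and in introns with 73.4 as the highest.

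HLH-2, the worm's E protein and the common dimer partner of tissue-specific bHLH proteins, had a strongest region with a signal of 47.7 at rank 12759, in an intron of its gene (WBGene00001949, chrI:7190788-7193920). The ranks were 17456 in replicate 1 and 17565 in replicate 2. For hlh-3 (WBGene00001950, chrII:9086608-9087908), an achaete-scute gene of neuron formation, no pooled candidate was found. Replicate 1 had 2 there, the better at rank 16762, and replicate 2 had none. Both genes thus had weak or no candidates. The Twist homolog hlh-8, a gene of the postembryonic mesoderm, had a signal of 45.6 at rank 14441, with ranks of 20498 and 19647 in replicates 1 and 2.

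Of the achaete-scute genes hlh-3, hlh-4, hlh-6 and hlh-14, 3 of 4 had a candidate, at pooled ranks from 13371 to 25514. The gene hlh-6, needed for the pharyngeal glands, had a signal of 44.1 and ranked 3165 in replicate 1, against 22568 in replicate 2. Its region lay 1664 bp upstream, inside the neighbouring gene hal-3. Among the OLIG-related genes hlh-16, hlh-17, hlh-31 and hlh-32, 3 of 4 had one. The best was that of hlh-17, expressed in glia, with a signal of 54.7 at rank 8183 and rank 7155 in replicate 1 but no region in replicate 2. The region of hlh-32 had a signal of 50.9 and was found in replicate 2 only, at rank 9213. These groups by role, and those of the homeobox genes below, were formed after the values had been seen, and their counts stand beside a share of 62.4% over all genes with a pooled candidate.

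The Ptf1a homolog hlh-13 (WBGene00001957) had a region 146 bp downstream of its start with a signal of 69.6 at rank 3276. It ranked 1305 in replicate 2 and had no counterpart in replicate 1. The gene hlh-33 had a signal of 70.1 at rank 3172, with ranks of 7479 and 5952 in replicates 1 and 2, at 1338 bp upstream. It was the most even of the 4 strongest hlh genes. The AP-4 homolog hlh-11 scored 51.5 at rank 10084, although a region at its start, weaker in the pooled list, was at rank 800 in replicate 2, the best rank of any hlh gene in that replicate. The remaining scored genes, hlh-4, hlh-14, hlh-15 and hlh-16, had signals from 35.8 to 46.9.

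Among homeobox genes the highest signal belonged to ceh-8 (WBGene00000433, chrI:8245505-8250948), the worm's RAX-like paired-type gene. The region (chrI:8245293-8245748) had a signal of 105.0 at rank 663 and a −log10 q-value of 1.47, against 1.63 for the weakest IDR peak. It ranked 1825 in replicate 1, with a signal of 48, and 810 in replicate 2, with a signal of 51.2. Both replicates thus placed it among their upper candidates. It lay at the end of the gene, in its last exon, and also in the window of col-63, a collagen gene. The summit in replicate 2 fell just past the end of ceh-8, so that the best region assigned to ceh-8 in replicate 2 alone was at rank 4961. Of 2228 other genes of at least 5000 and under 10000 bp, 7% had a stronger region.

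The 5 NK-2 genes included the next homeobox regions. For ceh-22 (WBGene00000445, chrV:10671918-10675769), the NKX2-5 homolog of pharyngeal muscle, the region (chrV:10672476-10672931) was in an exon 70 bp downstream of a transcript start. Its signal was 97.7 at rank 840, and it ranked 966 in replicate 1 and 3492 in replicate 2. The E-box CAAGTG in its sequence is the reverse complement of CACTTG. For ceh-51 (WBGene00013583, chrV:18874133-18875982), a gene of the MS mesoderm lineage, the region (chrV:18873292-18873747) lay 613 bp upstream of the start and inside the neighbouring gene emb-4. It had a signal of 91.3 at rank 1089 and ranked 1336 in replicate 1 and 2244 in replicate 2, with both replicate summits at the same base. Only 3.34% of other genes of at least 1000 and under 2000 bp had a stronger region, the smallest such share among the members. It held 4 copies of TTGCCG, no E-box, and 81.9% of its 31-mers occurred once in the genome. The remaining NK-2 gene with a candidate, ceh-27, had a signal of 53.8, and ceh-24 and ceh-28 had no pooled candidate.

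All 6 ONECUT genes, ceh-21, ceh-38, ceh-39, ceh-41, ceh-48 and ceh-49, had a candidate, at pooled ranks from 1427 to 5849, and 5 of the 6 were overlapped in both replicates. Over all genes 62.4% had a candidate, and 59.1% of the other genes that had one were overlapped in both replicates. ONECUT proteins have a cut domain beside the homeodomain. The genes ceh-21 (WBGene00000444), ceh-39 (WBGene00000460) and ceh-41 (WBGene00000462) are neighbours on X, and ceh-39 is known as an X-signal element in sex determination. A single region (chrX:1850415-1850870), in an intron of ceh-21 and 1968 bp upstream of ceh-41, was the strongest for both. Its signal was 85.5 at rank 1427, and it ranked 1772 in replicate 1 and 1409 in replicate 2. It counts as 1 region for these 2 genes, so that the 6 rest on 5 regions. The region of ceh-39 (chrX:1856040-1856495), 96 bp upstream of its start, had a signal of 73.9 at rank 2582, ranked 2213 in replicate 1 and was absent from replicate 2. The region of ceh-49 had a signal of 70.2 and that of ceh-38, 997 bp upstream and inside malt-1, had 65.4 with ranks of 4909 and 3883 in replicates 1 and 2. That of ceh-48 had 59.9.

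The BarH-like gene ceh-30, which keeps a set of male sensory neurons alive, had a signal of 80.9 at rank 1766, with ranks of 2458 and 6817 in replicates 1 and 2. The region lay in an exon near the end of the gene, 1920 bp downstream of the nearest start. The other BarH-like gene, ceh-31, had no pooled candidate. The EMX homolog ceh-2, a gene of pharyngeal neurons, had a signal of 74.5 at rank 2501, but the region lay within 100 bp of a tRNA gene and ranked 1838 in replicate 1, against 24307 in replicate 2. For the Distal-less homolog ceh-43 the region was also within 100 bp of a tRNA gene, with a signal of 58.7 and ranks of 29710 and 5031. The replicates thus placed both regions far apart, in opposite order. No other member's scored region was that close to a tRNA, snoRNA or snRNA gene.

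The labial Hox gene ceh-13 had a signal of 58.1 and ranked 5828 in replicate 1, against 21012 in replicate 2. The POU gene ceh-18, which acts in oocyte maturation, had 63.5, with rank 2074 against 21062. The sine oculis-type gene ceh-34, needed in pharyngeal neurons, had 58.0 with ranks of 5371 and 21591, and all 3 genes of that type (ceh-32, ceh-33 and ceh-34) and all 3 PBC genes (ceh-20, ceh-40 and ceh-60) had a candidate, against 62.4% of all genes. The PBC regions lay at pooled ranks from 7883 to 24820, and that of ceh-60 was found in replicate 1 only. The goosecoid homolog ceh-45 had a signal of 60.8. For ceh-13, ceh-18, ceh-34 and ceh-60, replicate 2 gave the weaker rank or no region. Other members of the same groups went the other way. The region of ceh-20 ranked 26724 in replicate 1 and 16005 in replicate 2. Those of ceh-32 and ceh-33 were found in replicate 2 only, at ranks 24239 and 9653, and that of ceh-40 in neither replicate.

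Less studied homeobox genes filled the rest of the 25 strongest. The region of ceh-86 had a signal of 75.6 at rank 2328, with ranks of 4837 and 3034 in replicates 1 and 2. It held 2 copies of TTGCCG, as the sequence shows. The region of ceh-87 had a signal of 72.4, lay in sup-9 and was found in replicate 1 only, at rank 1339. The genes ceh-53, ceh-91 and ceh-100 had signals of 72.2, 69.3 and 69.3, and ceh-9 and ceh-88 had 65.1 and 61.7. At ceh-100, 21503 bp long, there were 9 candidates.

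The replicates agreed on few of these regions at high rank, as was so for other scored genes. A candidate in both replicates overlapped the scored region of 10 of 14 hlh genes (71.4%) and 32 of 50 ceh genes (64.0%), against 59.1% of other genes with a score and 99.8% of IDR peaks. Of the rest, 1 hlh gene and 9 ceh genes were found in replicate 1 only, 3 and 7 in replicate 2 only, and 0 and 2 in neither. For the 12407 other genes with a score, these counts were 2576, 2137 and 367. Within rank 5000 in both replicates stood 0 hlh genes and 7 ceh genes, which were ceh-8, ceh-21, ceh-22, ceh-38, ceh-41, ceh-51 and ceh-86. That is 10.9% of the 64 scored members, against 12.9% of other scored genes. Of the 7, ceh-21 and ceh-41 share 1 region, whose summit in replicate 1 fell outside the window of ceh-41. Rank 5000 was chosen after the values were seen. Among the 495 strongest regions of each replicate, no member of either family had a summit in its window, with 2.71% of all genes in replicate 1 and 2.75% in replicate 2. Among the 990 strongest, replicate 1 had hlh-30 (rank 598) and ceh-22 (rank 966), with 4.90% of all genes, and replicate 2 had hlh-11 alone, with 5.15% of all genes. The region at rank 598 did not overlap the scored region of hlh-30. It overlapped intron candidates of that gene that ranked 29869 in replicate 2.

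**Figure D4:**
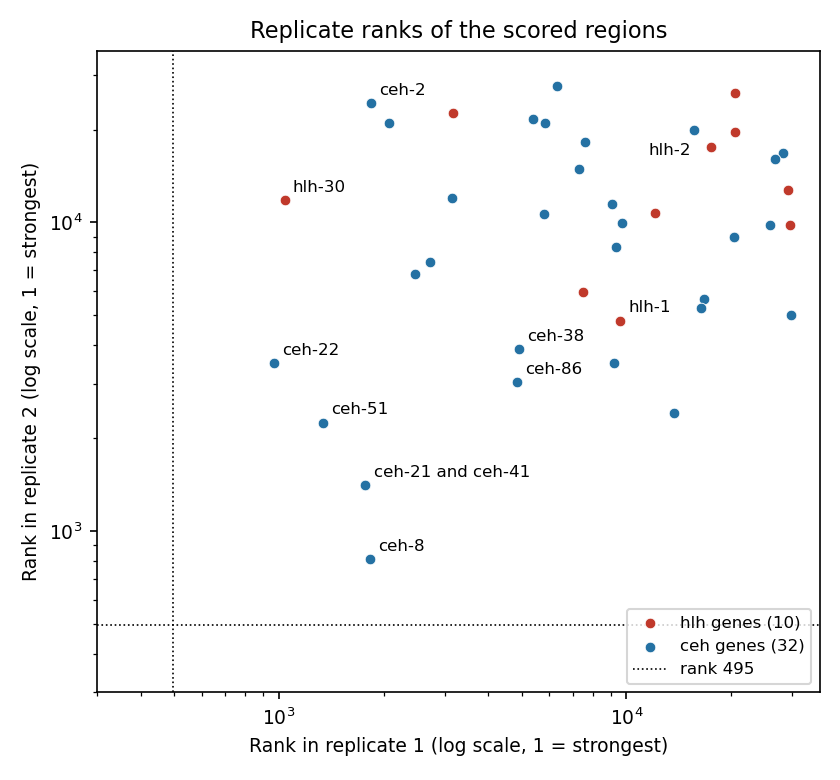
Rank in replicate 2 (vertical axis, log scale) against rank in replicate 1 (horizontal axis, log scale) of the region that overlaps each scored region, for the 10 hlh and 32 ceh genes found in both; dotted lines mark rank 495. Points spread over the whole range, ceh-8 and the shared region of ceh-21 and ceh-41 lie low on both axes, and hlh-30 and ceh-2 lie low on the horizontal axis alone, at 1038 and 1838.

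The scored summit lay upstream of the gene for 7 of 14 hlh genes and 25 of 50 ceh genes, against 52.1% of other scored genes. It lay in an exon for 5 hlh genes and 15 ceh genes, against 22.2%, and in an intron for 2 and 10, against 25.7%. The windows of neighbouring genes overlap, and 3 hlh and 20 ceh summits also fell in the window of another protein-coding gene. For those 23 members the region cannot be assigned to 1 gene by position, as is so for 47.7% of other scored genes. The 3 hlh summits, those of hlh-4, hlh-6 and hlh-16, lay inside T05G5.1, hal-3 and trt-1, and 11 ceh summits also lay inside another gene. The 64 scored members rested on 62 distinct regions, since ceh-81 and ceh-82 share a region as well.

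E-boxes were scarce at the scored bHLH regions. Within 50 bp of the summit, CANNTG on either strand was present in 1 of 14 hlh regions (7.14%), that of hlh-6, and in 13 of 48 ceh regions (27.1%), against 29.2% of all 30000 pooled regions and 31.1% of IDR peaks. CAGGTG, a subset of CANNTG, was present in 0 hlh regions and 1 ceh region (2.08%, ceh-2), against 2.65% of all pooled regions. CACTTG, also a subset, was in 0 hlh regions and 4 ceh regions (8.33%), those of ceh-6, ceh-22, ceh-39 and ceh-89, against 3.98% of all pooled regions. The homeodomain-type palindrome TAATTA was in 1 hlh (7.14%) and 2 ceh regions (4.17%), against 4.29%. CGCGCC, a GC-rich hexamer that was in 9.90% of IDR peaks and 2.84% of all pooled regions, was in none of the member regions. The mean GC content was 40.4% at hlh and 38.8% at ceh summits, against 47.8% at IDR peaks and 38.5% in all pooled regions. Of the 2 hexamers picked after reading the sequences, TTAGGC was in 2 hlh regions (14.3%; hlh-1 and hlh-14) and 3 ceh regions (6.25%), against 4.64% of all pooled regions. TTGCCG was in 0 hlh and 3 ceh regions (6.25%; ceh-51, ceh-58 and ceh-86), against 7.87%. A match is a description of the letters and not of a bound site.

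No pooled candidate lay in the windows of hlh-3, hlh-10, hlh-12, hlh-19, hlh-25, hlh-26, hlh-27, hlh-28, hlh-29, hlh-31 and hlh-34, nor in those of ceh-7, ceh-12, ceh-16, ceh-24, ceh-28, ceh-31, ceh-36, ceh-54, ceh-75, ceh-76, ceh-83, ceh-90 and ceh-99. Of these, 6 hlh genes (24.0% of 25) and 4 ceh genes (6.35% of 63) had none in any of the 3 lists, against 20.4% of other genes. The 6 were hlh-12 and the 5 hlh genes of the REF-1 type, hlh-25 to hlh-29, a family known for targets of Notch signalling in the early embryo. The gene ref-1 itself had a pooled candidate with a signal of 59.5 at rank 6024, and ranks of 6017 and 18505 in replicates 1 and 2. The windows of these 5 hlh genes hold partly repeated sequence, although within the gene hlh-26 itself 100% of 31-mers occur once. Of the 31-mers of hlh-28, 91.1% are also in hlh-29, and only 34.5% of the 31-mers in either window occur once in the genome. The genes hlh-25 and hlh-27 share 71.4% and 73.2% of their 31-mers, with 67.4% and 67.1% of window 31-mers occurring once, and hlh-26 has 76.8%. Among ceh windows with as much repeated sequence, those of ceh-84 (53.4%) and ceh-53 (58.9%) held 2 and 3 pooled candidates. That of ceh-99 (71.8%) held none. The median over the families was 99.0% for hlh and 99.9% for ceh, against 99.1% for other genes. Whether reads from repeated sequence were kept is not given in the sources used here, and its part in the absence of candidates was not tested. In the window of hlh-12 every 31-mer occurred once.

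Among bHLH and homeobox genes with other names, the gap between the families in candidate regions was not seen in the windows used above. Of 15 such bHLH genes, 13 (86.7%) had a candidate, against 62.4% of all genes and 66.8% of other genes weighted to the same lengths, with a median signal of 55.3 and a median gene length of 3073 bp. None of the 15 had an IDR peak or one of the 990 strongest regions, against 2.77% and 5.09% of all genes and length-adjusted shares of 3.06% and 5.79%. Without replicate 1, 1 of the 15 was among the 990 strongest. The highest were hif-1, the hypoxia factor, with 76.6 but ranks of 24774 and 463 in replicates 1 and 2, ngn-1, the neurogenin homolog, with 75.6, and mml-1, a Mondo-like gene, with 74.5. The genes ahr-1, ref-1 and mdl-1 followed with 68.8, 59.5 and 58.3. The genes cnd-1 and mxl-1 had no pooled candidate. Of 39 homeobox genes with other names, 33 (84.6%) had a candidate, against 62.4% of all genes and a length-adjusted 76.9%, with a median gene length of 4858 bp. In promoter windows, from 1000 bp upstream to 200 bp downstream of a start, the count was 17 of 39, and 9 of 15 for the bHLH genes with other names. No share of other genes at the same lengths is given for those windows. None of the 39 had an IDR peak, against a length-adjusted 4.15%, and 4 (10.3%) were among the 990 strongest, against 5.09% of all genes and a length-adjusted 7.74%. That count was 1 without replicate 1 and 2 without replicate 2. The 4 were nob-1, a posterior Hox gene, with 111.5 at rank 547 and ranks of 2751 and 373 in replicates 1 and 2; ttx-1, an OTX gene of thermosensory neurons, with 98.8; unc-62, the Meis homolog, with 98.3; and vab-7, the even-skipped homolog, with 95.5. The next were hmbx-1 with 88.8 and zfh-2 with 76.3. The nob-1 region was above that of every hlh and ceh gene and still below the weakest IDR peak. No pooled candidate was found for mec-3, psa-3, ttx-3, unc-4, unc-30 and vab-15, of which the first 3 and unc-30 had a candidate in at least 1 replicate list.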

How the data were processed

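ChIP-seq regions were taken from the authors' deposited narrowPeak lists on ce11, 1 list of 30000 regions for each of 2 biological replicates, 1 for both pooled, and 1 of 495 IDR peaks. Per the deposited manifests, each list was made against a control alignment; the control library was not analysed here. The deposited signal value per region has no stated scale, and the deposited −log10 q-value was used as a description. The aligner is not given in the sources used here, nor is the peak caller, any version or the IDR cut-off. The ce10 lists were not used.

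Summits were assigned to protein-coding genes of Ensembl release 115 (WBcel235) in windows from 2000 bp upstream of any transcript start to the gene's end. Replicate ranks are those of the strongest replicate region that overlaps the pooled region by at least 1 bp; "own" best regions of a replicate were assigned like pooled ones. Shares of other genes were standardised over 6 length classes (bounds 1000, 2000, 3000, 5000 and 10000 bp). Motifs were searched on both strands within 50 bp of the summit, and 31-mers were counted over the genome. Scripts used Python 3.11.15, pandas 2.3.3, NumPy 2.4.6 and matplotlib 3.10.9; on simulated lists, 200 of 200 genes were scored as planted. With 1 group and no counts, no test was made.

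The members, lists and alternatives were chosen with earlier results of these data known. Named were hlh-1, hlh-2 and hlh-3, the 15 hlh and 25 ceh genes with the highest signal (14 hlh genes had one), all members without a candidate, and up to 6 genes of each list with other names; other members were named after their values were seen. The groups by role, the 31-mer counts, the rank limit of 5000, the joining of overlapping candidates, the hexamers TTAGGC and also TTGCCG, and the value without hlh-30 were added after the data were seen. The alternatives tried were other windows, the nearest start, length deciles, leaving out small RNA genes, a 50% overlap and each replicate alone.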

Additional observations from a re-analysis of the deposited data

How the results depend on the processing

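No paired analysis was possible because there is 1 group. The IDR counts were 0 for both families in every alternative. Narrower windows, the nearest start, a shorter list and leaving out small RNA genes could give no other count, since they only remove regions. The 495 strongest pooled regions are the IDR list itself. Without 1 replicate, the count was of the 495 strongest regions of the other replicate and not of IDR peaks. In all alternatives ceh genes had a candidate more often than hlh genes. In promoter windows (1000 bp upstream to 200 bp downstream of a start), candidates were found for 9 hlh and 33 ceh genes, a difference of -16.4 points, with length-adjusted shares of 35.1% and 39.6%; the hlh median rank was 10445, 1 ceh gene was among the 990 strongest, and the adjusted shares there were 2.58% and 3.04%. With windows from 1000 bp upstream to the gene's end, the adjusted shares were 50.3% and 58.6% for candidates and 3.56% and 4.53% for the 990 strongest. With the nearest start, the difference was -28.2 points, the adjusted shares 47.1% and 55.1%, and 2.93% and 3.68%, the hlh median rank 10264.5, and 1 ceh gene was among the 990 strongest. Length deciles, of genes or windows, gave ceh 66.2%. Without regions at small RNA genes the adjusted shares of the 990 strongest were 3.51% and 4.34%. Leaving out 1 replicate gave 13 to 15 hlh and 47 to 50 ceh genes with a candidate, differences from -22.6 to -19.4 points, hlh median ranks from 12746 to 12769, 1 hlh gene and from 0 to 1 ceh genes among the 990 strongest, adjusted candidate shares from 60.3% to 61.3% for hlh and from 67.3% to 68.3% for ceh, and adjusted shares of the 990 strongest from 4.11% to 4.35% and from 5.19% to 5.50%. The hlh density of 0.436 per kb was 0.327 without hlh-30 and from 0.376 to 0.402 in 1 replicate. The causes were not tested. Depth is unknown, so a gene without a candidate is one without a region in these lists, not one without binding.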
